A study of Ovis aries with 16 samples.

Results

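A set of 10 genes was defined by 1 property of the sequenced disc cells: in nucleus pulposus cells (NPC) and, separately, in annulus fibrosus cells (AFC), every library from an old sheep held a higher level of the gene than every library from a lamb. The table lists 30722 genes, and 11760 of them met the limits on level and on tissue difference within which the set was sought. Levels are given as CPM, the reads of a gene per 1000000 reads counted in the library. A gene had to reach 2 CPM in 4 or more of the 16 libraries, to stay under a mean CPM of 1000, and to differ on average between NPC and AFC of the 8 animals by less than 1 on the scale of log2(CPM + 0.5). In all, 11 genes met the rule, and 1 was set aside by it, which left 10. These 10 were chosen for the difference between the ages, so their age differences are given here as a description, with no test.

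The libraries came from 4 female lambs of 6 months (young) and 4 female sheep of 7 to 8 years (old), all of the Vendée breed, and each animal gave 1 culture of NPC and 1 of AFC. The 5 lumbar discs of an animal were pooled per tissue, and its cells were grown as monolayers on plastic in medium with serum up to passage 1. The labels name no treatment and no altered allele. Both ages were of 1 sex and the lambs had not finished skeletal growth, and the study's imaging graded the discs of the old sheep as mildly more degenerated than those of the lambs, so age, skeletal maturity and disc degeneration cannot be told apart. Animals of each age were numbered Y1 to Y4 and O1 to O4 in the order of their identifiers.

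The nucleus pulposus is the hydrated, proteoglycan-rich core of the intervertebral disc, and the annulus fibrosus is the ring of collagen lamellae around it. Cells of both tissues build and turn over the matrix, and an ageing disc typically loses cells, water and aggrecan while signs of senescence and matrix breakdown appear. When such cells are expanded on plastic they tend to take on a fibroblast-like state. Fresh tissue was not analysed here.

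The identity of the 10 genes is limited to their Ensembl identifiers. The symbol table at hand matched 0 of the 30722 identifiers, so functions, positions and sequences are not given, and the defining markers of disc cells and of other cell types could not be looked up. The genes are called gene 1 to gene 10, from the highest to the lowest mean CPM over the 16 libraries, an order that is not corrected for gene length. Gene 1 is ENSOARG00020020490, with a mean of 182.7 CPM, and gene 10 is ENSOARG00020021522, with a mean of 3.17 CPM. The study's list of module genes gives 11 genes by identifier, and 0 of these were among the 10. Its other genes are given by symbol and could not be compared, so nothing about overlap with the modules is read from this.

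Between 28782526 and 51800007 reads per library had been counted on genes. The shallowest libraries were the NPC of Y4, with 28782526 reads, and the AFC of Y3, with 30391717 reads. No library repeated another of its group, since the chi-square of their counts, divided by its degrees of freedom, ran from 52.3 to 366 over the 24 pairs. A second scaling, edgeR's trimmed mean of M values (TMM), changed the library totals by factors between 0.947 and 1.05, with a mean of 1.01 in old NPC, 0.996 in young NPC, 0.997 in old AFC and 1.00 in young AFC. Membership of 5 of the 10 genes depended on this choice. In bulk RNA of a culture, fewer cells of a type and less RNA per cell cannot be told apart.

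Separation of the ages in both tissues was rare. With old libraries all above young ones, 371 of the 11760 genes (3.15%) were separated in NPC and 212 (1.80%) in AFC, and 11 genes (0.0935%) were separated in both, the gene set aside included. These 11 made up 2.96% of the genes separated in NPC and 5.19% of those separated in AFC. In the opposite direction 203 genes were separated in NPC, 182 in AFC and 23 in both, while 0 genes were separated in opposite directions in the 2 tissues. Libraries of NPC and AFC shared their animals, so the tissues are not independent samples of age. In NPC, 64.6% of the separated genes were higher in old cells with library totals and 52.96% with TMM, and in AFC the shares were 53.8% and 51.7%. With TMM, again 11 genes (0.0935%) were separated upward in both tissues, and 10 of them remained after the gene set aside was left out, but only genes 1, 3, 8, 9 and 10 belonged to both sets of 10.

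**Figure D1:**
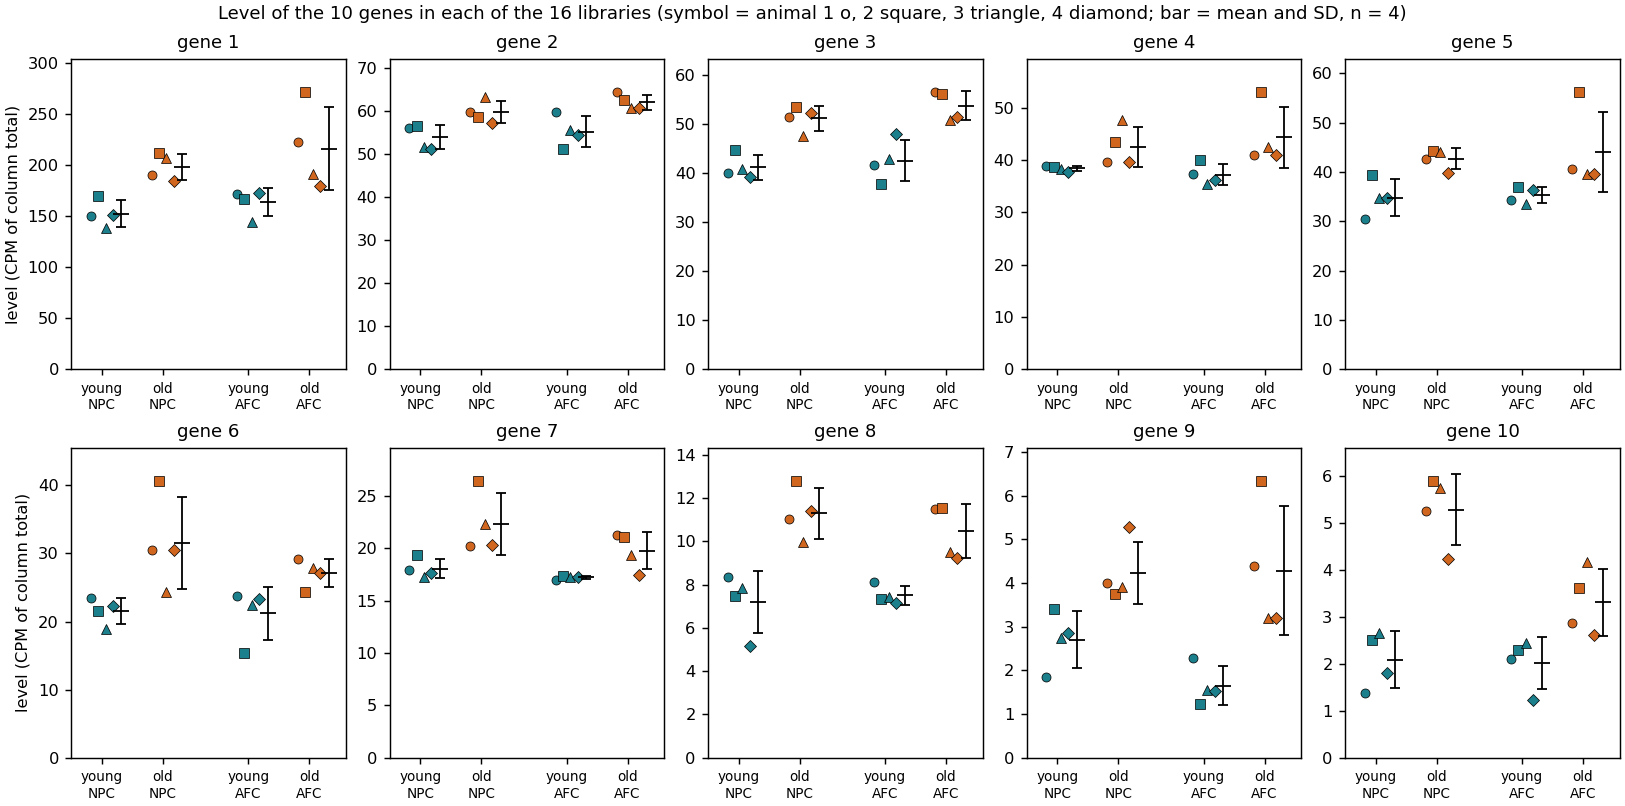
Level of each of the 10 genes (y axis, CPM of the library total, from 0) in the 16 libraries, by age and cell type, where each symbol is an animal and the bar is the mean with its SD (n = 4). In every panel the old libraries of a cell type lie above its young ones, widely in gene 10 in NPC and by under 1% in gene 5 in NPC and gene 7 in AFC.

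Gene 1 had the most reads of the 10. In young NPC its level was 149.9 CPM in Y1, 170.1 in Y2, 137.9 in Y3 and 151 in Y4, and in old NPC it was 190.1 CPM in O1, 212 in O2, 207 in O3 and 185 in O4. The old mean of 198 ± 12.8 CPM (SD, n = 4) was 1.30 times the young mean of 152 ± 13.3 CPM (SD, n = 4), and even O4, the lowest old library, lay 8.65% above Y2, the highest young one. In AFC the young libraries held 172 CPM in Y1, 167 in Y2, 144 in Y3 and 173 in Y4, and the old ones held 222 CPM in O1, 271 in O2, 192 in O3 and 179.6 in O4. The old AFC were thus spread more widely than the young, mainly through O2, with means of 216 ± 40.9 and 164 ± 13.5 CPM (SD, n = 4 each), and O4 stood 3.97% above Y4.

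Gene 3 differed by a nearly equal step in both tissues. Its level in young NPC was 39.99 CPM in Y1, 44.8 in Y2, 40.9 in Y3 and 39.2 in Y4, against 51.6 CPM in O1, 53.5 in O2, 47.6 in O3 and 52.3 in O4. In young AFC it was 41.6 CPM in Y1, 37.8 in Y2, 42.9 in Y3 and 48.0 in Y4, against 56.5 CPM in O1, 56.1 in O2, 50.9 in O3 and 51.5 in O4. The ratio of the old to the young mean was 1.24 in NPC and 1.26 in AFC, and O3 was the lowest old library in both, 6.18% and 6.10% above the highest young one. The step was 3.94 times the pooled SD of the log2 levels within groups in NPC and 2.96 times in AFC, a ratio that the rule favours and that ran from 1.57 to 4.13 in NPC and from 1.67 to 3.499 in AFC over the 10 genes.

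Gene 8 had means of 7.21 ± 1.43 CPM in young and 11.3 ± 1.17 CPM in old NPC, and of 7.497 ± 0.424 CPM in young and 10.45 ± 1.25 CPM in old AFC (SD, n = 4 each). In NPC the young libraries held 8.37 CPM in Y1, 7.48 in Y2, 7.86 in Y3 and 5.14 in Y4, and the old ones 11.0 CPM in O1, 12.8 in O2, 9.94 in O3 and 11.4 in O4. The low value of Y4 rested on 148 reads, the fewest of any library for this gene. In AFC the young libraries held 8.11 CPM in Y1, 7.34 in Y2, 7.40 in Y3 and 7.14 in Y4, and the old ones 11.51 CPM in O1, 11.55 in O2, 9.51 in O3 and 9.25 in O4. Its gaps, 18.8% in NPC and 14.0% in AFC, were the widest pair among the 10 genes when each was judged by the narrower of its 2 gaps on the log2(CPM + 0.5) scale (0.18).

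Genes 9 and 10, with the fewest reads, had the largest fold differences, each in a different tissue. Gene 9 in AFC was at 2.29 CPM in Y1, 1.23 in Y2, 1.55 in Y3 and 1.53 in Y4, and at 4.39 CPM in O1, 6.34 in O2, 3.20 in O3 and 3.20 in O4, so that the old mean was 2.60 times the young one. In NPC the same gene was at 1.84 CPM in Y1, 3.396 in Y2, 2.73 in Y3 and 2.85 in Y4, and at 3.99 CPM in O1, 3.74 in O2, 3.91 in O3 and 5.28 in O4, a ratio of means of 1.56. Young NPC had a higher mean of gene 9 than young AFC (2.703 ± 0.646 against 1.65 ± 0.454 CPM, SD, n = 4 each), with overlapping ranges and with Y1 in the other direction, while the old means lay close together (4.23 ± 0.709 against 4.28 ± 1.48 CPM, SD, n = 4 each).

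Gene 10 showed the reverse arrangement. In NPC it was at 1.37 CPM in Y1, 2.51 in Y2, 2.65 in Y3 and 1.81 in Y4, and at 5.26 CPM in O1, 5.89 in O2, 5.75 in O3 and 4.22 in O4, so the old mean was 2.53 times the young one and the lowest old library lay 59.1% above the highest young one. In AFC it was at 2.11 CPM in Y1, 2.29 in Y2, 2.43 in Y3 and 1.22 in Y4, and at 2.86 CPM in O1, 3.62 in O2, 4.16 in O3 and 2.61 in O4, a ratio of means of 1.64. Here the young means were close, at 2.09 ± 0.604 CPM in NPC and 2.01 ± 0.546 CPM in AFC (SD, n = 4 each), and the old NPC mean lay above the old AFC mean, at 5.28 ± 0.756 against 3.31 ± 0.712 CPM (SD, n = 4 each). Between 52 and 287 reads per library stood behind these values.

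Genes 2, 4, 5, 6 and 7 met the rule with library totals and not with TMM. Gene 2 ranged from 51.2 to 56.5 CPM in young and from 57.3 to 63.3 CPM in old NPC, and from 51.0 to 59.6 CPM in young and from 60.6 to 64.3 CPM in old AFC. Its ratio of means was 1.11 in NPC and 1.124 in AFC, with gaps of 1.30% and 1.63%. With TMM its gap in NPC became an overlap (-0.662%). A difference this small separated the groups because their spread was also small, 0.07 (SD of log2 level) in both tissues.

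Gene 4 was the least variable of the 10 in young NPC, where its 4 libraries lay between 37.8 and 38.9 CPM. The old NPC lay between 39.6 and 47.6 CPM, and AFC between 35.4 and 40.04 CPM in young and between 40.9 and 52.99 CPM in old animals. With TMM the AFC of O1 stood below that of Y2 (-5.28%), which was the largest overlap among the 5 genes.

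Gene 5 had the narrowest gap of all in NPC. The highest young library, Y2, was at 39.4 CPM and the lowest old one, O4, at 39.7 CPM, a gap of 0.727%. With TMM these 2 libraries changed places (-1.22%). In AFC its young libraries lay between 33.4 and 37.0 CPM, while 3 of the old ones lay between 39.5 and 40.7 CPM and the fourth, O2, at 56.1 CPM.

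Gene 6 was spread widely in old NPC, from 24.4 to 40.6 CPM, against 18.9 to 23.4 CPM in young NPC. In AFC it ranged from 15.4 to 23.8 CPM in young and from 24.4 to 29.2 CPM in old cells, and with TMM the AFC of O2 lay below that of Y1 (-1.46%). Gene 7 was nearly constant in young AFC, from 17.0 to 17.3 CPM, with old AFC from 17.5 to 21.2 CPM and a gap of 0.747% that became an overlap with TMM (-0.427%). In NPC its range was 17.3 to 19.3 CPM in young and 20.2 to 26.4 CPM in old cells.

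The counting error of each gap was computed from the reads of the 2 libraries beside it. The rule required this same ratio to exceed 1 in both tissues, so the intervals describe the precision of the chosen values and are no test of a difference between the ages. The 95% interval of the ratio of the lowest old to the highest young level stayed above 1 in NPC for 3 genes, namely 1, 8 and 10, and in AFC for 4 genes, namely 1, 3, 5 and 9. Only gene 1 did so in both tissues. For genes 2, 4, 6 and 7 the interval included 1 in both. For gene 10 the NPC gap was 4.20 times its counting standard error, and the AFC gap, between 74 reads in Y3, the shallowest AFC library, and 135 reads in O4, was 0.470 times. These intervals cover counting error only and take the 2 libraries at the edge of each group, not the group means. For most of the gaps the interval thus included 1.

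**Figure D2:**
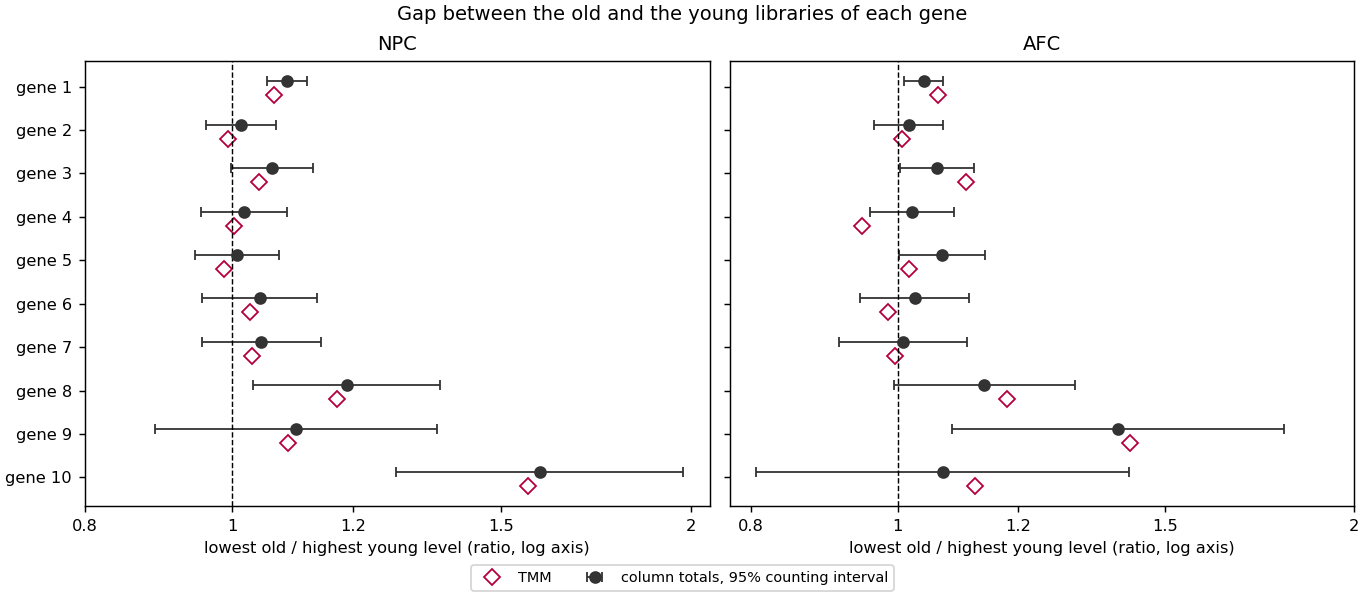
Ratio of the lowest old to the highest young level (x axis, log scale) for each gene in NPC and AFC, with library totals (filled circles, bars are 95% counting intervals) and with TMM (open diamonds, drawn without an interval). Values left of the dashed line mean that the groups overlap, as for genes 2 and 5 in NPC and genes 4, 6 and 7 in AFC with TMM.

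The genes just inside and just outside the rule were close to each other. On the scale of log2(CPM + 0.5), the narrower of both gaps was 0.01 in genes 5 and 7, 0.02 in gene 2 and in gene 4, and 0.04 in gene 6, and it rose to 0.12 in gene 9 and 0.18 in gene 8. The 3 nearest genes outside had overlaps of -0.0056, -0.0078 and -0.010 on the same scale, at mean levels of 10.3, 24.9 and 75.6 CPM. Counted as comparisons of 1 old with 1 young library of the same tissue, 32 in all, 11 genes had old above young in all 32, 17 genes in 31, 36 genes in 30 and 66 genes in 29. The 10 genes are thus the end of a continuous series and not a group set off from the rest.

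In size, the age differences were mostly modest. In the fit over all 15521 genes that passed edgeR's low-count filter, the 10 genes had log2 fold changes of old over young from 0.13 to 1.32 in NPC (median 0.33, standard errors from 0.065 to 0.26) and from 0.17 to 1.37 in AFC (median 0.35, standard errors from 0.065 to 0.26), where the median over all genes was 0.02 in both. Gene 10 had the largest value in NPC, 1.32 (standard error 0.26), and gene 9 in AFC, 1.37 (standard error 0.26). Removal of 1 animal moved 3 of the 20 values by more than 1.5 times. Gene 4 in NPC was at 0.13 in all animals and 0.08 without O3. Gene 7 in NPC was at 0.29 and 0.19 without O2, and gene 5 in AFC at 0.32 and 0.20 without O2. No sign changed, but the rule had already placed every old library above every young one by library totals. The constant sign thus follows largely from the selection and is no test of stability.

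**Figure D3:**
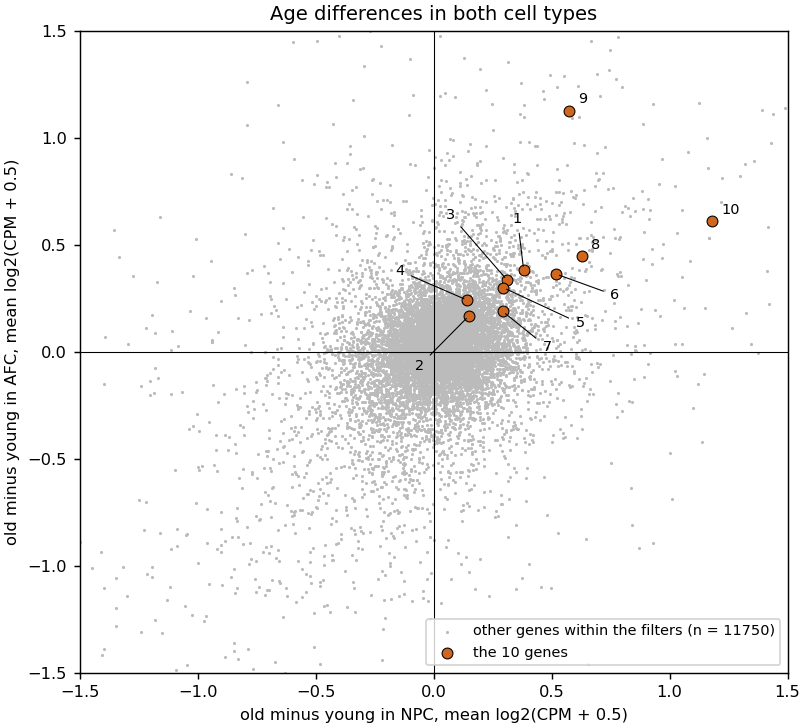
Difference between old and young means of log2(CPM + 0.5) in NPC (x axis) and AFC (y axis) for the 11760 genes within the limits, with the 10 genes in orange and numbered, and 108 genes beyond the axes not drawn. The 10 lie in the upper right quadrant by construction, with gene 10 farthest along the NPC axis and gene 9 farthest along the AFC axis.

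Low spread went with membership. The SD of log2(CPM + 0.5) within groups had a median over the 10 genes of 0.13 in NPC and 0.16 in AFC, beside 0.20 and 0.26 over all 11760 genes, and 4 and 2 of the 10 were above those medians. Their age differences had medians of 0.35 in NPC and 0.35 in AFC, beside median absolute differences of 0.12 and 0.12 over all genes. Both follow from a rule that asks for groups without overlap and are given as a description. In mean level the 10 spanned 3.17 to 182.7 CPM, with a median of 32.3 CPM beside 23.7 CPM over all genes within the limits, and 6 of the 10 were above the latter.

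The age difference itself was compared between the tissues by the interaction of age and tissue, a contrast that the rule did not order, although it required both differences to be positive. None of the 10 genes was called, that is, had an adjusted p under 0.05, in the quasi-likelihood test of edgeR (Benjamini-Hochberg adjusted p 0.999 for each, background 0% of 15521 genes), and 0 of them had an unadjusted p under 0.05, beside 683 of all 15521 genes. DESeq2 called 0 of the 10 as well (background 0.0128% of 23383 genes). It had 1 of the 10 at an unadjusted p under 0.05, beside 955 of the 23418 genes it fitted. With the animal as a block edgeR called 0 (background 0%) and DESeq2 0 (background 0.442%). The rule used these same libraries, and edgeR called 0 of all 15521 genes. The absence of calls among the members therefore does not show that their age differences were alike in both tissues. The largest estimates were those of gene 9, where the old-minus-young log2 fold change was 0.74 lower in NPC than in AFC (-0.74, standard error 0.36), and of gene 10, where it was 0.60 higher in NPC (standard error 0.37). Gene 9's estimate was -1.10 without Y1 and -0.47 without O2, and that of gene 10 lay between 0.41 and 0.73 over the removals of an animal. For the other 8 genes the estimates lay between -0.12 and 0.17, with standard errors from 0.092 to 0.21, and 5 of these changed sign when an animal was left out.

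NPC and AFC were also compared at each age. The rule limited the mean tissue difference over both ages, so these contrasts are not independent of it, and few calls among the members do not show that the tissues were alike. In young animals edgeR called 0 of the 10 (background 0.0129%) and in old animals 0 of the 10 (background 2.26%), each with 1 gene at an unadjusted p under 0.05, beside 946 and 2613 of all 15521 genes. In young animals that gene was gene 9, with a log2 fold change of NPC over AFC of 0.72 (standard error 0.26, adjusted p = 0.628 from edgeR), and in old animals it was gene 10, at 0.66 (standard error 0.26, adjusted p = 0.200 from edgeR). Since the NPC and AFC of an animal are paired, a replicate block for the animal was added, and edgeR again called 0 of the 10 in young (background 0%) and in old animals (background 2.95%). DESeq2 with the block called gene 10 in old animals (adjusted p = 0.0348, background 8.43%) and 0 of the 10 in young animals (background 1.44%), while DESeq2 without the block called 0 at either age (background 6.70% in old and 0.606% in young animals).

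The deviation of each library from the mean of its group describes which animals stood high or low. The rule used the same library values and bounded these deviations, so what follows on them, the correlations included, is a description of the chosen genes. Among old NPC, O2 was the highest of the 4 in 7 of the 10 genes, and O4 was the lowest in 5. Among old AFC, O2 was the highest in 5 genes and O4 the lowest in 6, with median deviations of 0.14 and -0.15 (log2). Y2 was above its group mean in all 10 genes in NPC, by a median of 0.11, and in 5 of 10 in AFC. At the edge of the gap, the lowest old library was O4 for 5 genes, O3 for 3, O1 for 1 and O2 for 1 in NPC, and O4 for 6 genes, O3 for 3 and O2 for 1 in AFC. The highest young library was Y2 for 6 genes, Y1 for 3 and Y3 for 1 in NPC, and Y1 for 4 genes, Y2 for 3, Y4 for 2 and Y3 for 1 in AFC. The factor by which TMM scaled the AFC of O4 was 0.958, so its levels rose by that scaling, and that of the AFC of Y2 was 0.947. In NPC the factor was 1.02 for O4, so its levels fell, and 0.9996 for Y2. The part of these factors in the deviations was measured only through the correlations that follow.

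**Figure D4:**
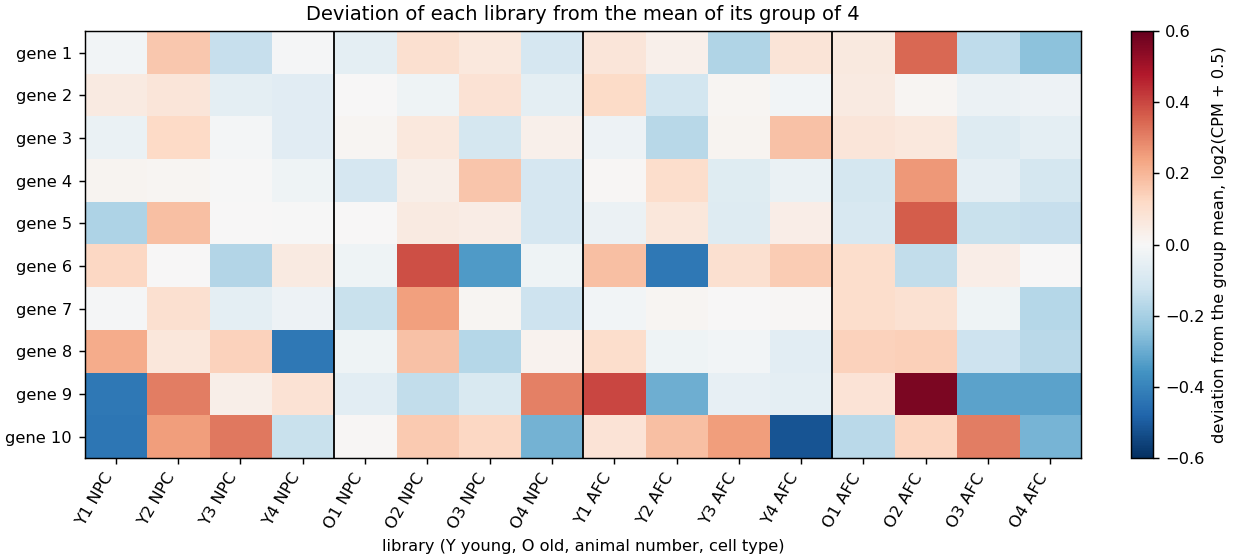
Deviation of each library (columns, by group) from the mean of its group of 4 for each gene (rows), in log2(CPM + 0.5), with red above and blue below the mean and colours saturated at 0.6 either way. The AFC of O2 stands out as high in genes 1, 4, 5 and 9, and the NPC of Y2 is red or near white in all 10 rows.

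Within groups the 10 genes varied together only loosely. Over the 45 pairs of genes, the correlation of their deviations across the 16 libraries had a median of 0.29, from -0.47 between genes 4 and 6 to 0.81 between genes 1 and 5, and 38 of the 45 were above 0. Over all pairs of the 11760 genes the median was 0.045, with an interquartile range from -0.30 to 0.38. With TMM the median over the 45 pairs was 0.14. The 16 points share their libraries and their totals, and 4 degrees of freedom were spent on the group means, so the values are given as a description. Genes 1, 4 and 5 formed the closest trio, with correlations of 0.71, 0.74 and 0.81, and all of them were high in the AFC of O2.

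Deviations in NPC and AFC of the same animal were compared gene by gene over the 8 animals. The correlation was above 0 in 6 of the 10 genes, with a median of 0.34 and a range from -0.75 in gene 9 to 0.55 in gene 10, beside a median of -0.028 over all 11760 genes (interquartile range from -0.32 to 0.33). Gene 1 had a value of 0.54 and gene 8 of 0.49, while gene 3 stood at -0.38. With an animal left out the median ran from 0.12 (without O4) to 0.41 (without O3). Its standard error, computed from these removals, was 0.239. The members were selected on these libraries, and nothing is read from the difference to the median over all genes.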

How the data were processed

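RNA of NPC and AFC at passage 1 was sequenced from 4 young and 4 old sheep (16 libraries). Per the labels and the study's methods, the deposited values are raw read counts per Ensembl gene, made by the authors from stranded mRNA libraries aligned with STAR to the Rambouillet genome (ARS-UI_Ramb_v2.0). The submitters' processing notes name FastQC 0.11.8, fastp, STAR 2.7.10b and HTSeq 2.0.3. The strand setting is not given in the sources used here, so counts of overlapping or similar genes are less certain.

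CPM was computed from column totals with Python 3.11.15. Members were found by the rule. The members and lists were chosen with earlier results of these data known. Genes kept by edgeR's filter (15521) were fitted in R 4.3.3 with edgeR 4.0.16, TMM and a mean per group, all 16 libraries together. P-values came from the quasi-likelihood test with Benjamini-Hochberg adjustment (threshold 0.05), with DESeq2 1.42.0 as an alternative. The fits for the interaction and for NPC minus AFC in old animals were run on simulated counts without animal effects. The rule, the gaps and the correlations were not tested in this way. Standard errors are the log2 fold change divided by the root of F. Counting intervals (95%) treat reads as independent, cover counting error only and use a normal approximation to the log ratio of 2 counts.

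NPC and AFC were paired by the animal identifiers in the labels. Over 11760 genes, the deviations of an animal's 2 libraries had a mean correlation of 0.14 (lowest -0.40, highest 0.66), which exceeded 0.1 in 4 of 8 animals. Genes to be named were the member with the largest smaller-of-both log2 fold change (gene 10) and the member with the highest mean CPM (gene 1), because 0 identifiers matched a symbol. For the same reason 15 gene lists and 11 lists of cell type markers could not be used. A symbol table for ARS-UI_Ramb_v3.0 was the reference at hand. Other genes were singled out after their values were seen. Alternatives were other scalings, filters, limits and pseudocounts, the replicate block, and the removal of 1 animal at a time.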

Additional observations from a re-analysis of the deposited data

Results flagged for a closer look

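Among 40 groups of 4 libraries (10 genes, 2 ages, 2 cell types), 3 held a library far from the other 3 on the log2 scale. Chance gives about 1 in 20 in groups that were not selected. The rule used and bounded these values, so the count is given as a description. In old AFC, O2 was at 52.99 CPM for gene 4, against 40.9 to 42.5 CPM in the other 3 libraries, and at 56.1 CPM for gene 5, against 39.5 to 40.7 CPM. In young AFC, Y2 was at 15.4 CPM for gene 6, against 22.4 to 23.8 CPM. These libraries were the highest old or the lowest young of their groups, so they could not lie at the edge of the gap. With TMM these 3 genes lost their separation, with overlaps of -5.28% (gene 4, AFC), -1.22% (gene 5, NPC) and -1.46% (gene 6, AFC). Without O2 the log2 fold change between old and young AFC was 0.18 for gene 4 (0.25 with all animals) and 0.20 for gene 5 (0.32), and without Y2 it was 0.26 for gene 6 (0.37).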

How the results depend on the processing

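The number of members was 10 with TMM and with DESeq2 size factors, but 5 of the 10 genes were replaced by 5 others with each. It was 16 with no limit on the tissue difference, and 1 when both gaps had to exceed their 95% counting interval, a requirement added after the data were examined that uses the ratio the rule selected on and so tests nothing. With an animal left out it was between 16 and 45, since fewer libraries are easier to separate. It was 16 without O1 or Y3, 22 without Y4, 26 without O2, 35 without O3, 37 without Y1, 39 without Y2 and 45 without O4. All 10 genes were held each time, since a removal cannot undo a separation. The other filters, pseudocounts and limits gave 8 to 13 members, and averages per animal cannot overlap by construction. The count of members called in NPC minus AFC in old animals was 1 in DESeq2 with the replicate block and 0 in the 12 other alternatives. With the replicate block in edgeR it was 0 for both ages and for the interaction. Counts over all genes moved more, since 351 genes differed between old NPC and AFC in edgeR, 1118 in DESeq2, and between 15 (without O1) and 240 (without Y2) with an animal left out. The median correlation between members within groups was 0.14 with TMM and lay between 0.24 and 0.35 with an animal left out, and the same-animal correlation lay between 0.12 and 0.41. Median log2 fold changes of the members ran from 0.29 to 0.38 (NPC) and from 0.32 to 0.40 (AFC) with an animal left out. Of the gaps that the rule selected on, 7 of 10 in NPC and 6 of 10 in AFC lay within their counting interval, given as a description. Genes 9 and 10 had at most 322 and 287 reads in a library.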
